A study of Mus musculus with 6 samples.

Results

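The miR-199 and miR-214 miRNAs of mouse liver were examined, taken as the rows of the miRNA table whose names begin with mmu-miR-199a-, mmu-miR-199b- or mmu-miR-214-. This gave 5 of the 1039 rows in the table, of which 762 carry mouse names. The 5 rows were mmu-miR-199a-5p, mmu-miR-199b-5p, mmu-miR-199b-3p, mmu-miR-214-5p and mmu-miR-214-3p. The table has no row of its own for mmu-miR-199a-3p. Its mature sequence is identical to that of mmu-miR-199b-3p, so the mmu-miR-199b-3p row is the one named for this sequence. The names of all 5 rows carry endings whose meaning is not given in the sources used here, which leaves the exact content of each row unknown.

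Small RNA was sequenced from the liver of wild type ICR mice aged 30 weeks, an outbred stock. All mice were on a high-fat diet (HFD), for 12 weeks before the 8 weeks of gavage and during it. The J group (3 mice, libraries J1 to J3) was gavaged with JTXK granule, a Chinese herbal formula, and the M group (3 mice, M1 to M3) with sterile water. Every comparison is between treated and untreated mice on HFD. Levels are given as RPM, the reads of a miRNA scaled to a fixed total of miRNA reads in each library. The libraries held 2626353 to 4314134 miRNA reads, and 3 reads, the limit that a count of 0 allows, corresponded to 0.695 to 1.14 RPM. Library M1 stood apart from the rest over the 548 miRNAs tested. Its correlation with the other libraries was 0.931 to 0.941, where the other 5 correlated with each other at 0.973 or more, and its label is the only one that begins with MX1. The log2 fold change of each of the 5 rows, the ratios it moves by over 1.5 times, the sum of the rows and the calls in the lists of other miRNAs are therefore also given without it.

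A miRNA gene is transcribed into a hairpin, from which the enzyme Dicer cuts a duplex of a 5p and a 3p arm, and the arm held by an Argonaute protein represses mRNAs that match its seed. Dnm3os is a long noncoding RNA transcribed from the strand opposite Dnm3, and it is the host of a miR-199a and a miR-214 hairpin. The miR-199 and miR-214 miRNAs are known from mesenchymal cells, among them the hepatic stellate cells that deposit collagen in the injured liver, and from fibrosis in several organs. The libraries are of whole liver, in which fewer cells of a type and less RNA per cell cannot be told apart, and no value here assigns the reads to stellate cells.

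The mature sequences are shown because they decide which rows can be told apart (RefSeq, GRCm38.p6, 5′ to 3′, seed at bases 2 to 8 in capitals). A RefSeq sequence was found for 4 of the 5 rows, and mmu-miR-199b-5p has no entry.
mmu-miR-199a-5p: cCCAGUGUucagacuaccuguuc
mmu-miR-199a-3p: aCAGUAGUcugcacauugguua
mmu-miR-199b-3p: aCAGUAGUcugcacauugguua
mmu-miR-214-5p: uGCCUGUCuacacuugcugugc
mmu-miR-214-3p: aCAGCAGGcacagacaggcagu
The 2 arms of each hairpin have different seeds. The seed of mmu-miR-214-3p is shared in RefSeq with mmu-miR-761, which has no row in the table. The seed of mmu-miR-199b-3p is shared with mmu-miR-199a-3p alone, and no other mature mouse miRNA in RefSeq has the seed of mmu-miR-199a-5p or mmu-miR-214-5p. The seed of mmu-miR-199a-5p, CCAGUGU, does occur once in the 5p side of the Mir199b hairpin, so the missing entry for mmu-miR-199b-5p does not show that the seeds of the 5p rows differ.

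The hairpins show which gene each arm can come from (RefSeq, GRCm38.p6, mature arms listed in RefSeq in capitals).
Mir199a-2: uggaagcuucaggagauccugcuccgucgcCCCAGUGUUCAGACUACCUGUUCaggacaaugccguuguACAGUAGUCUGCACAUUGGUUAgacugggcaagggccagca
Mir199a-1: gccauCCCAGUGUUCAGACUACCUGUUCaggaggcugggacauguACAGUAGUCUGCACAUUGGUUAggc
Mir199b: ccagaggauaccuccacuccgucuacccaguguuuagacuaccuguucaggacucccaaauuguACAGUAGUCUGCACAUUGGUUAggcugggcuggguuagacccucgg
Mir214: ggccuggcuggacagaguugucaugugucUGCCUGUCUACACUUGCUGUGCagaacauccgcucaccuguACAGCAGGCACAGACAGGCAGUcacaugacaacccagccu
Mir199a-2 (chr1:162217814-162217923, + strand) and Mir214 (chr1:162223368-162223477, + strand) lie in Dnm3os, separated by 5444 bases. In GENCODE, 2 of the 6 Dnm3os transcripts hold each of these hairpins inside an exon. Both hairpins also lie opposite introns of Dnm3. Mir199a-1 (chr9:21496495-21496564, - strand) lies opposite an intron of Dnm2, and Mir199b (chr2:32318460-32318569, + strand) opposite an intron of Dnm1. The 3 miR-199 genes are thus each placed opposite a dynamin gene. Reads of mmu-miR-199a-5p do not tell Mir199a-1 from Mir199a-2, and reads of the 3p sequence do not tell apart any of the 3 miR-199 genes. Of the rows in the table, the 2 of miR-214 are the ones that can come from Dnm3os alone.

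**Figure D1:**
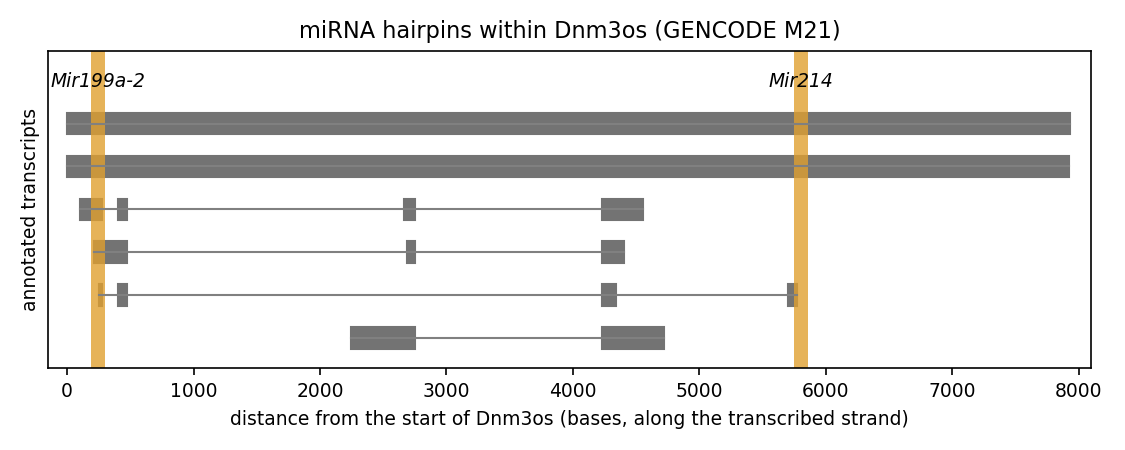
Map of Dnm3os. The x axis is the distance in bases from the start of Dnm3os along its transcribed strand, grey boxes are exons and lines introns of the 6 annotated transcripts, and the orange bands are the Mir199a-2 and Mir214 hairpins, which start at bases 192 and 5746.

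In the J group, mmu-miR-199a-5p and mmu-miR-214-3p lay below the M group in every library, at 0.648 and 0.672 times its mean RPM. The other 3 rows, mmu-miR-199b-3p, mmu-miR-199b-5p and mmu-miR-214-5p, had overlapping groups. The comparison was made on log2(RPM + 1) by limma, a linear model with variances moderated across miRNAs, over the 548 miRNAs with a mean above 1 RPM in a group. A miRNA was called, with the cut-offs used in the study, where its log2 fold change exceeded 0.3 in size and its p before adjustment was under 0.05. Of the 5 rows, 2 were called, both lower in the J group, where 5.29% of the 548 miRNAs were called in either direction and 3.83% were called lower. For the same 2 rows the libraries of the groups did not overlap, which held for 13.5% of the 548 miRNAs, and 9.31% were lower in every J library. The 5 rows had a median log2 fold change of -0.55, beside -0.13 over all 548. No miRNA in the table had an adjusted p under 0.05 by limma (Benjamini-Hochberg over the 548, smallest 0.42), while 29 had an unadjusted p under 0.05. By edgeR 0 had an adjusted p under 0.05 and 45 an unadjusted one, and by DESeq2 the counts were 2 and 36. The study picked miR-199a and miR-214, and also miR-425 and miR-30a, for its network from these same libraries, so their direction is not independent evidence.

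**Figure D2:**
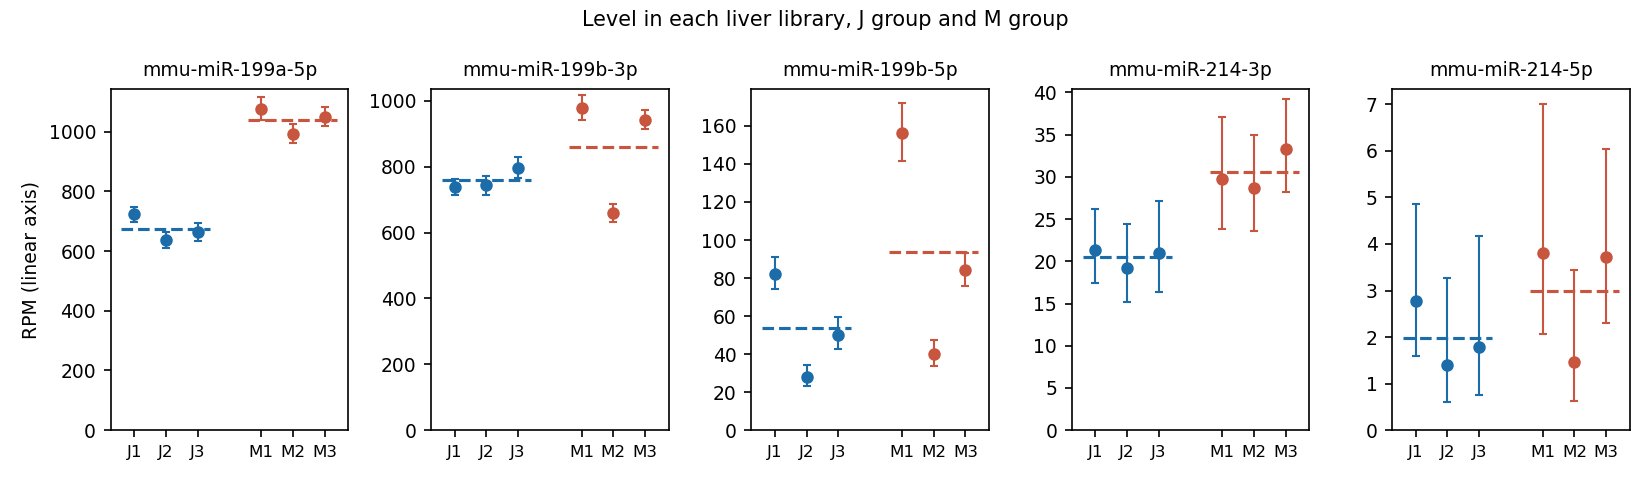
RPM of the 5 rows in each library (y axes linear, from 0, each row with its own scale). Points are single mice, bars are 95% Wilson intervals of the read count, and dashed lines are group means. The J libraries of mmu-miR-199a-5p and mmu-miR-214-3p all lie under their M libraries, and the other rows overlap.

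The 5p arm of miR-199a ranked 61st of the 548 miRNAs by mean RPM over the 6 libraries. Of the 5 rows it had the highest mean in the M group, and the mmu-miR-199b-3p row had the highest mean in the J group. mmu-miR-199a-5p had 723, 638 and 663 RPM in J1, J2 and J3. It had 1078, 994 and 1050.4 RPM in M1, M2 and M3. The groups were tight and far apart: the highest of the J libraries was 1.13 times the lowest, the highest of the M libraries 1.08 times the lowest, and the lowest M library stood well above the highest J library. The counting intervals did not meet either, with an upper bound of 749 RPM for J1 and a lower bound of 961 RPM for M2 (95% Wilson). The means of J and M were 675 ± 43.8 and 1040.5 ± 42.8 RPM (SD, n = 3 each). The log2 fold change was -0.63 (standard error 0.16, 95% interval -1.01 to -0.24). Its unadjusted p of 0.0061 from limma was the 7th smallest of the 548, and its adjusted p was 0.43. Without M1 the log2 fold change was -0.60 and it was still called. It was called under 15 of 16 alternatives, and under the remaining one, quantile normalization, the log2 fold change was -0.43 with an unadjusted limma p of 0.117.

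The miR-199 3p row was nearly as abundant as mmu-miR-199a-5p. The mmu-miR-199b-3p row had 738, 743 and 797 RPM in J1, J2 and J3 and 979, 660 and 942 RPM in M1, M2 and M3. The J libraries were close together, M1 and M3 lay above all of them, and M2 lay below all of them. The means of J and M were 760 ± 32.8 and 860 ± 174 RPM (SD, n = 3 each). The log2 fold change of -0.16 (standard error 0.21, 95% interval -0.65 to 0.33, adjusted p = 0.81 by limma) did not pass the thresholds. It was 0.36 under quantile normalization, -0.05 under median-of-ratios scaling, -0.05 without M1 and -0.34 without M2. The group means differed by less than the SD of the M libraries.

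The endings of the 5 names each hold a range and a length. They read 1 to 22 of 23 for mmu-miR-199a-5p, 1 to 23 of 23 for mmu-miR-199b-5p, 1 to 21 of 22 for mmu-miR-199b-3p, 1 to 18 of 22 for mmu-miR-214-3p and 1 to 21 of 22 for mmu-miR-214-5p. Whether a row holds reads of that range alone is not known. The name of the mmu-miR-199b-3p row also ends in a substitution, C12T, counted from 1 at the 5′ end of the miRNA. The base at position 12 of the RefSeq sequence is C. Of the mouse rows, 28 have such an ending. RefSeq gives a single mature sequence for 22 of them, and the first base named is the RefSeq base in 20. What the ending means for the counting is not given in the sources used here, so whether the row holds reads of the RefSeq sequence, reads with the substitution or both is not known.

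mmu-miR-199b-5p, the 5p arm named for Mir199b, was rarer and far more variable. It had 82.3, 28.2 and 50.3 RPM in J1, J2 and J3 and 156, 40.2 and 84.3 RPM in M1, M2 and M3. The highest library held 5.54 times the level of the lowest, and the ranges of the groups overlapped widely. The reads behind these values, 101 to 410 in a library, gave Wilson intervals of 141.7 to 172 RPM in M1 and 23.2 to 34.3 RPM in J2. The means of J and M were 53.6 ± 27.2 and 93.5 ± 58.5 RPM (SD, n = 3 each). The log2 fold change was -0.72 (standard error 0.57, 95% interval -2.04 to 0.61, adjusted p = 0.71 by limma), which was not called. It was -0.25 without M1 and -1.21 without M2.

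The 3p arm of miR-214, which comes from Dnm3os alone, was lower in the J group by about as much as mmu-miR-199a-5p. mmu-miR-214-3p had 21.3, 19.3 and 21.03 RPM in J1, J2 and J3. It had 29.7, 28.7 and 33.3 RPM in M1, M2 and M3. As with mmu-miR-199a-5p, each group was tight and no J library reached the lowest M library. These levels rest on 59 to 143 reads, and the counting intervals of single libraries did meet, reaching 27.1 RPM in J3 and starting at 23.6 RPM in M2 (95% Wilson). The means of J and M were 20.5 ± 1.12 and 30.6 ± 2.40 RPM (SD, n = 3 each). The log2 fold change was -0.55 (standard error 0.23, 95% interval -1.10 to -0.00108). Its unadjusted p of 0.0497 from limma lay just inside the threshold, and its adjusted p was 0.71. It was called under 2 of 16 alternatives, and it was not called when any one of the 6 libraries was left out (log2 fold change -0.59 to -0.49, and -0.57 without M1). All of these fits drew on the variances of other miRNAs, and none used the spread of this row alone. The study lists mmu-miR-214-3p and mmu-miR-199a-5p with smaller p-values, from a test that it does not name.

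The 5p arm, mmu-miR-214-5p, was near the limit of counting. It had 12, 5 and 5 reads in J1, J2 and J3 and 10, 5 and 16 reads in M1, M2 and M3. These came to 2.78, 1.40 and 1.78 RPM for J and 3.81, 1.47 and 3.72 RPM for M. M2 lay within the J range, and all 6 intervals overlapped (0.596 to 3.27 RPM in J2 and 2.29 to 6.05 RPM in M3). The means of J and M were 1.99 ± 0.715 and 2.999 ± 1.33 RPM (SD, n = 3 each). The log2 fold change, -0.38 (standard error 0.40, 95% interval -1.31 to 0.55, adjusted p = 0.77 by limma), was not called. It was -0.22 without M1, -0.70 without M2 and -0.11 with a pseudocount of 10 RPM.

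**Figure D3:**
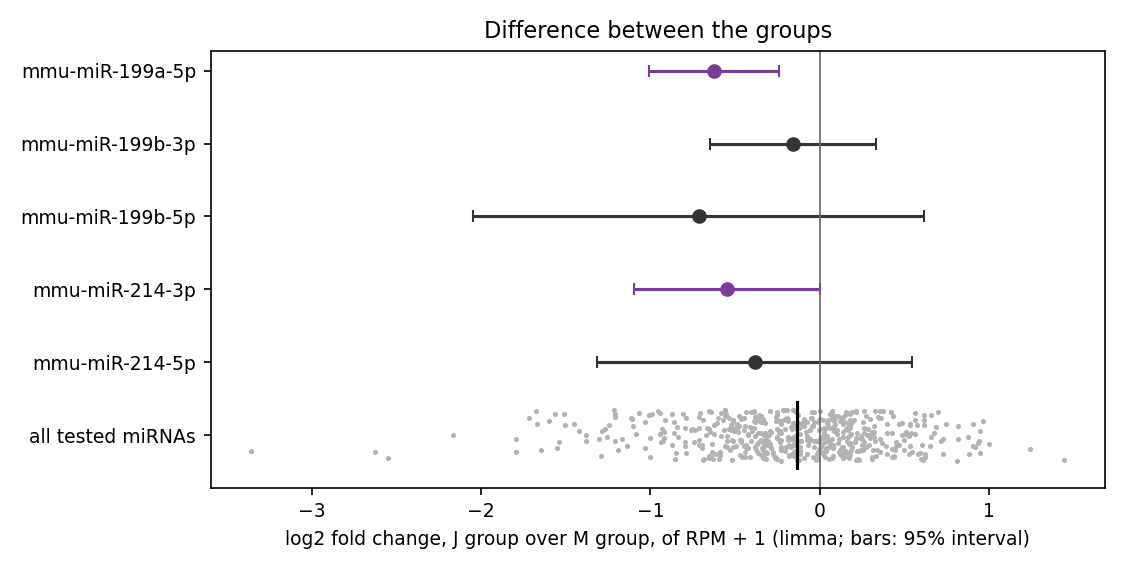
Log2 fold change of the J group over the M group on RPM + 1. Points with bars are the 5 rows with the 95% limma interval, purple where called, grey points are the 548 miRNAs tested and the black line is their median of -0.13. The intervals of mmu-miR-199a-5p and mmu-miR-214-3p lie below 0, and the interval of mmu-miR-199b-3p, whose value turns to 0.36 under quantile normalization, spans 0.

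Ratios between arms and loci were taken within each library, where the scaling between libraries drops out. Ligation and PCR favour some small RNAs over others, so a ratio describes reads rather than molecules. The groups were compared by an exact two-sided permutation test, which cannot go below p = 0.1 with 3 libraries against 3. Over the 7 ratios and sums compared, a permutation p of 0.1 became 0.233 after Benjamini-Hochberg adjustment, and the others became 0.70 or more.

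The proportion of the 5p and 3p rows of miR-199 did not overlap between the J and M groups, in a ratio chosen after the data were seen whose test did not pass. The ratio of mmu-miR-199a-5p to the mmu-miR-199b-3p row was 0.979, 0.858 and 0.831 in J1, J2 and J3 and 1.10, 1.51 and 1.12 in M1, M2 and M3. The 3p row thus had more reads than mmu-miR-199a-5p in each J library and fewer in each M library. Mean ratios of J and M were 0.889 ± 0.0789 and 1.24 ± 0.230 (SD, n = 3 each), a difference of -0.47 on the log2 scale (exact permutation p = 0.1, the smallest possible). With mmu-miR-199b-5p added to the 5p reads, the difference was -0.48 (exact permutation p = 0.1, n = 3), and every J library was again below every M library. Without M2, the library with the highest ratio, the difference between mmu-miR-199a-5p and the 3p row was -0.32, and without M1 it was -0.55. These ratios rest on the 3p row holding the reads of the shared 3p sequence, which is not known. The table has 119 miRNA names with both arms tested and with reads in every library. For 10.9% of them the 5p to 3p ratios of the groups did not overlap, and 5.04% were lower in every J library. The median absolute difference over these names was 0.34, with all 6 libraries. Of the 119, 45 differed by at least the 0.47 in size between mmu-miR-199a-5p and the mmu-miR-199b-3p row, a pair that is not itself among the 119, and mmu-miR-199b (-0.57) is 1 of the 45.

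mmu-miR-199a-5p and mmu-miR-214-3p were in much the same proportion in all 6 libraries. The ratio of mmu-miR-199a-5p to mmu-miR-214-3p was 33.9, 33.1 and 31.5 in J1, J2 and J3 and 36.3, 34.6 and 31.6 in M1, M2 and M3. The groups overlapped, with means of 32.8 ± 1.21 and 34.1 ± 2.40 (SD, n = 3 each), and the difference was -0.05 on the log2 scale (exact permutation p = 0.4). With a library left out it lay between -0.11 (without M3) and -0.0089 (without M1). Over the 6 libraries the SD of the log2 ratio was 0.0788, below the 0.161 that the read counts alone would give. mmu-miR-199a-5p can also come from Mir199a-1, so this is not a ratio within Dnm3os alone.

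The proportion of the 2 forms of miR-199 5p varied between mice in both groups. mmu-miR-199a-5p exceeded mmu-miR-199b-5p 8.79, 22.6 and 13.2 times in J1, J2 and J3 and 6.90, 24.7 and 12.5 times in M1, M2 and M3. The difference between the groups was 0.10 on the log2 scale (exact permutation p = 0.9), and its sign turned without J2 (-0.26) or without M1 (-0.35). The ratio of mmu-miR-199b-5p to the 3p row, at 0.0379 to 0.160, overlapped as well (-0.57, exact permutation p = 0.5). This difference was -0.96 without J1, -0.19 without J2, -0.20 without M1 and -0.89 without M2.

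For miR-214 the 3p arm dominated. The ratio of mmu-miR-214-5p to mmu-miR-214-3p was 0.130, 0.0725 and 0.0847 in J1, J2 and J3 and 0.128, 0.0510 and 0.112 in M1, M2 and M3. The groups overlapped, with a difference of 0.04 on the log2 scale (exact permutation p = 0.9) that was -0.20 without J1, -0.37 without M2 and 0.30 without M1. The SD of the log2 ratio over the libraries was 0.533, and the read counts alone would give 0.564.

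**Figure D4:**
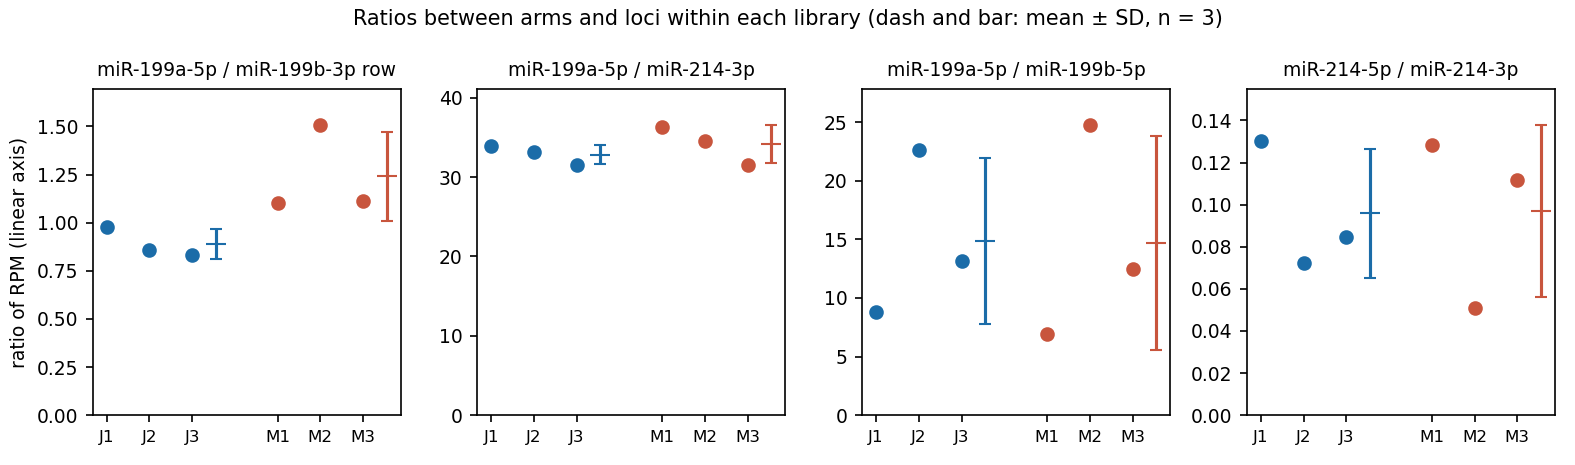
Ratios of RPM within each library (y axes linear, from 0). Points are single libraries, blue for the J group and red for the M group, and the dash with its bar is the mean ± SD (n = 3). The ratio of mmu-miR-199a-5p to the mmu-miR-199b-3p row separates the groups, and the ratio of mmu-miR-199a-5p to mmu-miR-214-3p stays between 31.5 and 36.3.

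The 5 rows summed gave 1568, 1430 and 1534 RPM in J1, J2 and J3 and 2246, 1724 and 2114 RPM in M1, M2 and M3. The highest J sum lay under the lowest M sum. Mean sums of J and M were 1510.3 ± 71.8 and 2028 ± 271 RPM (SD, n = 3 each), a difference of -0.42 on the log2 scale (exact permutation p = 0.1, the smallest possible). It was -0.34 without M1. Under median-of-ratios scaling the difference was -0.31 and the groups overlapped, with J1 above M2 (exact permutation p = 0.2). mmu-miR-199a-5p and the 3p row make up most of this sum.

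The profiles across the 6 libraries were compared by Pearson's correlation of log2(RPM + 1), as a description, since all miRNAs share these libraries and many share the difference between the groups. Of 273 mouse miRNAs with a mean of at least 10 RPM, mmu-miR-214-3p had the highest correlation with mmu-miR-199a-5p (r = 0.975) and the smallest SD of the log2 ratio to it. That SD, 0.0788, was below the 0.161 that the read counts alone would give, so counting error limits what this rank shows. mmu-miR-199b-5p (r = 0.605) ranked 61st and the mmu-miR-199b-3p row (r = 0.472) ranked 89th. Outside the family, the highest correlations with mmu-miR-199a-5p were those of mmu-miR-425-5p and mmu-miR-148b-3p (r = 0.961 each), mmu-miR-598-3p and mmu-miR-146b-5p (0.940 each) and mmu-let-7a-5p (0.921). By the SD of the log2 ratio, mmu-miR-146b-5p was not close (0.614, 178th), with a log2 fold change of -1.54. mmu-miR-425-5p had 57.5 ± 1.60 RPM in J and 92.5 ± 8.92 RPM in M (SD, n = 3 each), and mmu-miR-148b-3p had 5551 ± 443 and 8339 ± 680 RPM. The highest correlation with mmu-miR-214-3p after mmu-miR-199a-5p was that of mmu-miR-145a-5p (r = 0.946), a miRNA of smooth muscle and other mesenchymal cells. It was followed by mmu-miR-425-5p (0.920), mmu-miR-598-3p (0.906), mmu-miR-148b-3p (0.889) and mmu-miR-146b-5p (0.882), the last again far by the SD of the log2 ratio (0.662, 187th). Among the rows themselves, mmu-miR-199b-5p and mmu-miR-214-5p ran together (r = 0.934), with mmu-miR-214-5p at 16 reads or fewer in every library.

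Lists of miRNAs known from mesenchymal cells, leukocytes and hepatocytes were read beside these rows, where 3.83% of all 548 miRNAs were called lower in the J group and 5.29% in either direction. Of 12 miRNAs listed for mesenchymal cells, 12 were tested and 2 were called, both lower in the J group: mmu-miR-145a-5p with 4270 ± 444 against 5897 ± 926 RPM (log2 fold change -0.46) and mmu-miR-145a-3p with 648 ± 108 against 977 ± 71.2 RPM (-0.60). These 2 are arms of the same hairpin, so they are not separate loci. Their abundant partner mmu-miR-143-3p had 10128 ± 1798 against 13772 ± 4360 RPM and was not called (-0.41). The median of the list was -0.20, and its summed level was 17324 to 21724 RPM in the J libraries and 21838 to 30000 RPM in the M libraries. The same 2 were called without J1, M1 or M2. Without J2 the count was 0. Without J3 it was 4, with mmu-miR-127-3p and mmu-miR-411-5p added, and the median was -0.48. Without M3 mmu-miR-145a-5p was not called and mmu-miR-322-5p was. The median was -0.37 without M2. Of 10 leukocyte miRNAs, all tested, 4 were called lower in the J group, namely mmu-miR-146a-5p, mmu-miR-146b-5p, mmu-miR-342-3p and mmu-miR-342-5p, and 0 were called higher. With a library left out the count ran from 3 to 5, and mmu-miR-146a-5p, mmu-miR-146b-5p and mmu-miR-342-3p were called each time. Without M1 the count was 3 and the median of the list was -0.63. mmu-miR-342-3p and mmu-miR-342-5p are arms of the same hairpin, and mmu-miR-342-5p had 14 reads or fewer in every library. All 10 members were below 0, but those not called had overlapping groups. Their values included -0.18 for mmu-miR-150-5p, -0.32 for mmu-miR-223-3p, -0.52 for mmu-miR-223-5p and -0.56 for mmu-miR-155-5p. mmu-miR-142a-3p (-1.51) had 444 RPM in M1 and 34.6 and 47.02 RPM in M2 and M3. The most abundant of the list, mmu-miR-142a-5p, had 525, 598 and 761 RPM in J1, J2 and J3 and 3709, 683 and 961 RPM in M1, M2 and M3, and was not called (-1.12), except without M2. The summed leukocyte level was 1072 to 1513 RPM in the J libraries and 2032 to 7031 RPM in the M libraries, with M1 the highest and 2666 RPM in M2, and the median log2 fold change was -1.20. The 7 hepatocyte miRNAs had a median of -0.12 and 0 calls, with a summed level of 392108 to 420089.9 RPM in the J libraries and 392813 to 451440.4 RPM in the M libraries. Without J1 mmu-miR-148a-3p was called lower (median -0.07), without M2 mmu-miR-192-5p was called higher (median -0.06), and without each of the other libraries, M1 among them, the count was 0. The part of the leukocyte and mesenchymal levels in the results for mmu-miR-199a-5p and mmu-miR-214-3p was not tested.

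With all 6 libraries the endothelial, erythroid and bile duct lists held 0 calls. mmu-miR-126a-3p, of endothelial cells, was not called, at 5326 ± 1292 against 4942 ± 568 RPM (0.09), and mmu-miR-126a-5p has no row. Of 5 erythroid miRNAs, 4 were in the table and 0 were called (median -0.13, summed 5842 to 8671 RPM in the J libraries and 3914 to 13098 RPM in the M libraries). Of 5 miRNAs of bile duct epithelium 0 were called (median -0.68, summed 950 to 2379 RPM and 1203 to 4298 RPM), and all 5 were below 0, as were 58.9% of all 548. Without M1 these lists again held 0 calls, and the median of the bile duct list was -0.24. In the bile duct list mmu-miR-200b-3p was called lower without J3 (median -1.002), and mmu-miR-200b-3p and mmu-miR-429-3p were called lower without M3 (median -1.17). The erythroid median ran from -0.53 without M2 to 0.34 without M3, where mmu-miR-144-3p was called higher, and was -0.21 without M1, -0.01 without J1 and -0.30 without J3. The value of mmu-miR-126a-3p ran from -0.10 without J2 to 0.25 without J1. Over all the lists, mmu-miR-342-5p in J2 was the one listed miRNA with 0 reads in a library, which allows up to 0.837 RPM.

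Of 8 profibrotic miRNAs outside the family 0 were called. Of these, 7 were below 0, beside 58.9% of all 548, and their median log2 fold change was -0.26, beside -0.13 over all 548, and -0.16 without M1. Without J2 mmu-miR-21a-5p was called higher, without J3 mmu-miR-155-5p was called lower, and without each of the other libraries the count was 0. The median was -0.14 without J1. mmu-miR-21a-5p, a promoter of fibrosis and the most abundant of them, had 152012 ± 33470 RPM in J and 130315 ± 19314 RPM in M (SD, n = 3 each, log2 fold change 0.21). mmu-miR-27b-3p had 23430 ± 1684 and 26154 ± 1029 RPM, lower in every J library (-0.16), and mmu-miR-27a-3p had 1393 ± 182 and 1825 ± 518 RPM (-0.36). mmu-miR-221-3p had 395 ± 65.6 and 404 ± 83.4 RPM (-0.02). Of 12 antifibrotic miRNAs, 1 was called, beside 5.29% of all 548 in either direction. This was mmu-miR-30a-5p, which rose to 45276 ± 6023 RPM in the J group from 29507 ± 1741 RPM in the M group (0.61). Of the abundant members, mmu-miR-122-5p had 224136 ± 13421 and 243182 ± 16722 RPM (-0.12), and mmu-miR-194-5p had 15606 ± 2192 and 13847 ± 1418 RPM (0.17). The miR-29 members, which repress collagen mRNAs, were not called: mmu-miR-29a-3p had 3751 ± 749 and 4083 ± 279 RPM (-0.14), mmu-miR-29b-3p 113 ± 23.6 and 117 ± 20.6 RPM (-0.05) and mmu-miR-29c-3p 426 ± 42.9 and 383 ± 67.5 RPM (0.17). The median of the antifibrotic list was -0.04 and ran from -0.16 without J2 to 0.13 without J1, with 0.06 without M3 and -0.10 without M1. mmu-miR-30a-5p was called with any library left out, and without M3 mmu-miR-133a-3p was also called, lower in the J group.

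**Figure D5:**
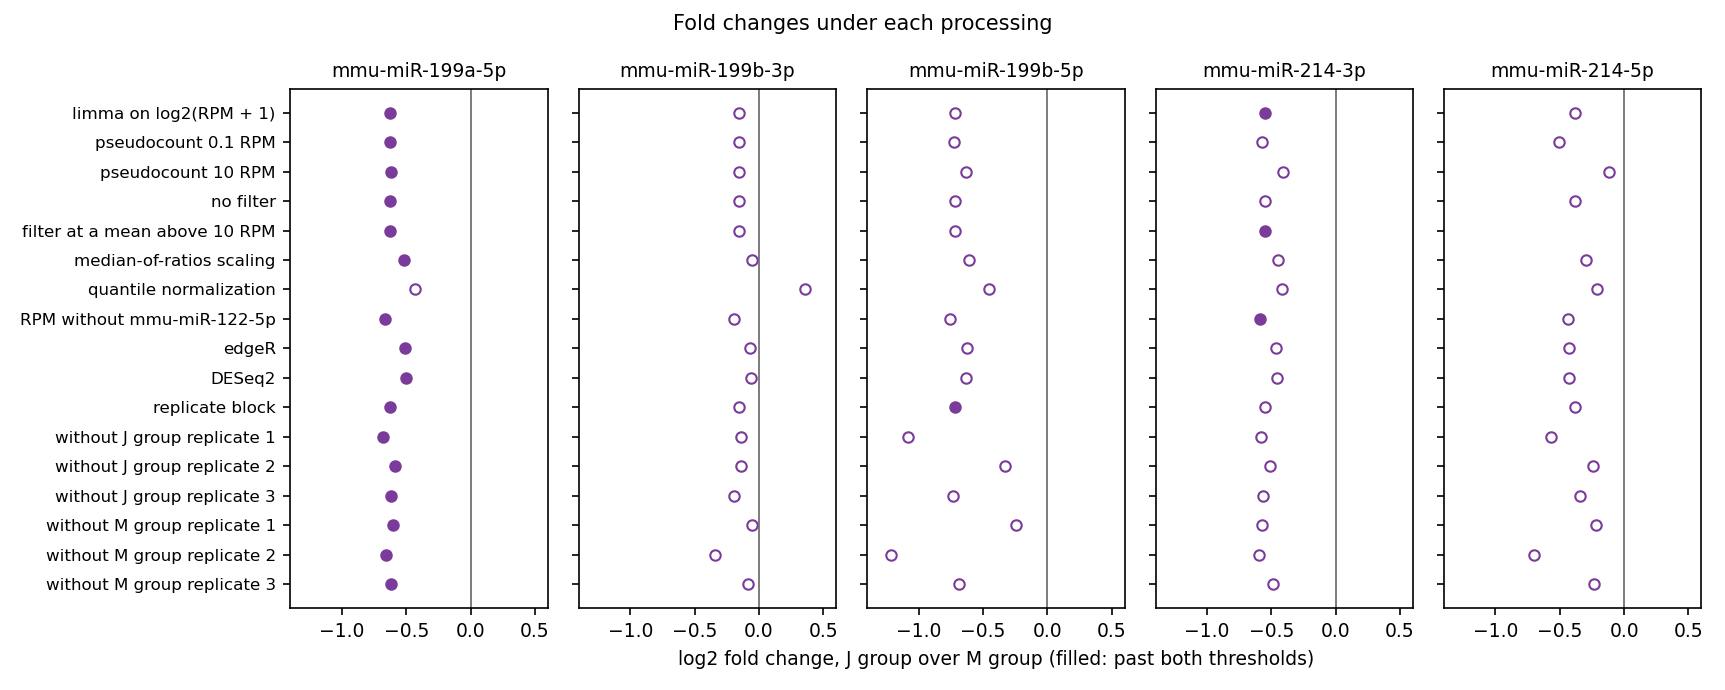
Log2 fold change of the J group over the M group for the 5 rows (x axis) under each way of processing (y axis). Filled points pass both thresholds. mmu-miR-199a-5p was past them under all but quantile normalization, mmu-miR-214-3p stayed below 0 but was mostly not called, and mmu-miR-199b-3p turned to 0.36 under quantile normalization.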

How the data were processed

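Small RNA libraries of total liver RNA were sequenced on Illumina HiSeq. The authors deposited RPM for each miRNA, with 1 column per mouse, after filtering the raw reads and matching the unique ones to Rfam and miRBase. The submitters' processing notes name the build mm9. The aligner, the mismatch rule and the rule for reads that match several miRNAs are not given in the sources used here. All values were whole multiples of the RPM of 1 read (tolerance 0.01, 100% of values), from which the reads were recovered.

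RPM was tested as log2(RPM + 1) by limma 3.58.1 in R 4.3.3 (lmFit, eBayes with trend, two-sided), without covariates, over miRNAs with a mean above 1 RPM in a group. Ratios and sums were tested by exact permutation with scipy 1.17.1. Separate mice were taken as replicates. The alternatives were pseudocounts of 0.1 and 10 RPM, no filter, a filter at 10 RPM, median-of-ratios and quantile scaling, RPM without mmu-miR-122-5p, edgeR 4.0.16 and DESeq2 1.42.0 on recovered reads, the replicate number as a block, and each library left out. The fit was tested on simulated data. No simulated library stood apart as M1 does, so that test does not show how the fit handles such a library. Wilson intervals cover counting error only, since PCR copies were not told apart. Positions are from GRCm38 (GENCODE M21 and RefSeq), since the table has none.

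The 5 rows and the lists of other miRNAs were chosen with earlier results of these data known. The text names all 5 rows, the 5 miRNAs outside the rule with the most similar profile to mmu-miR-199a-5p and to mmu-miR-214-3p, miRNAs that share a seed, and up to 4 of the most abundant members of each list. Other list members that the text names, among them the miR-29 members, mmu-miR-342-5p and those called only with a library left out, fall outside this rule and were named after their values were seen. The ratios of mmu-miR-199a-5p, alone or with mmu-miR-199b-5p, to the mmu-miR-199b-3p row were added after the data were seen, because mmu-miR-199a-3p has no row.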

Additional observations from a re-analysis of the deposited data

How the results depend on the processing

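mmu-miR-199a-5p kept its call under 15 of 16 alternatives and its direction under all 16, and with quantile normalization it was -0.43 and not called. mmu-miR-214-3p kept its direction under all 16 but its call under 2, a filter at 10 RPM and RPM without mmu-miR-122-5p. Its log2 fold change was -0.57 and -0.41 with pseudocounts of 0.1 and 10 RPM, -0.55 without a filter, -0.45 with median-of-ratios scaling, -0.42 with quantile normalization, -0.46 with edgeR, -0.46 with DESeq2, and -0.59 to -0.49 with a library left out. The mmu-miR-199b-3p row turned to 0.36 with quantile normalization. That scaling moved the median of all tested miRNAs from -0.13 to 0.08, and relative to the median the value of mmu-miR-199a-5p was lower than 0 under both. The ratio of mmu-miR-199a-5p to mmu-miR-199b-5p ran from -0.35 to 0.57 and that of mmu-miR-214-5p to mmu-miR-214-3p from -0.37 to 0.30 with a library left out. The count of 29 miRNAs past the thresholds was 45 with edgeR and ran from 21 to 46 with a library left out (21 without J group replicate 2, 46 without M group replicate 2, 34 without M group replicate 1). The cause of these changes was not tested.

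Numbers 1 to 3 are shared by the groups but are not known to pair the mice: deviations of same-numbered libraries correlated at 0.0453, 0.0584 and -0.00587, and not every library correlated best with its own number. With the replicate number as a block, mmu-miR-199b-5p (-0.72) was called, mmu-miR-214-3p (-0.55) was not, and mmu-miR-199a-5p (-0.63) was. With 5 to 16 reads, mmu-miR-214-5p allowed no firm statement, and it was not tested with the filter at 10 RPM. No value of mmu-miR-199a-3p, or of its ratio to mmu-miR-199a-5p, could be computed under any setting, since it has no row.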
